A study of Mus musculus and synthetic construct with 15 samples.

Results

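The regions around Prdm16, Tead1 and Myocd were examined in a reporter assay of enhancer activity in the hearts of newborn mice. They are the regions of the count table whose midpoint lies nearest to the body of any of these protein-coding genes, no farther than 100 kb away, by RefSeq on GRCm38 (mm10). The rule took 22 of the 3820 regions: 15 at Prdm16, 2 at Tead1 and 5 at Myocd, of which 19 lie inside a gene body. No region had its nearest gene body among these genes at more than 100 kb. The member farthest from its gene lies 96135 bp from Myocd. The rule itself uses position only, but the 3 genes were chosen with results in view, selected on the counts of their regions in atrium, ventricle and DNA, so all 3 comparisons count as used for the choice. Values and calls of the members are therefore given as a description, without p-values.

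The 3 genes encode transcriptional regulators of heart muscle, each with a different way of acting. PRDM16 is a zinc finger protein of the PR domain family that is needed for a compact ventricular wall, and its loss is linked to non-compaction cardiomyopathy. TEAD1 is a DNA-binding factor of the Hippo pathway that recruits the coactivators YAP and TAZ to growth genes. Myocardin, the product of Myocd, binds no DNA by itself and activates cardiac and smooth muscle genes through serum response factor. Enhancers are short stretches of DNA that raise transcription of a gene from a distance, in introns or outside the gene, and in a massively parallel reporter assay each candidate is cloned into a reporter that is counted as RNA.

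The pool of 400 bp regions was packaged in adeno-associated virus of serotype 9 (AAV9) and given to wild-type (WT) pups on postnatal day 0. Atria and ventricles were taken on postnatal day 7, and RNA was sequenced from 5 atrial and 5 ventricular libraries, with 5 DNA libraries of the AAV9 library as input (labelled as a synthetic construct, with no tissue). All RNA groups share the WT genotype, the AAV9 library and the label cardiomyocytes. The labels name no strain and no sex, and they do not say whether different animals stand behind the replicates, so p-values measure the spread between these libraries, which may be technical. Only reporter regions were counted, so the labelled tissue could not be checked against markers, and fewer transduced cells and less RNA per cell cannot be told apart.

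Library totals were 877773 and 1271527 counts in the replicate 1 RNA libraries (atrium and ventricle), 1718563 to 3781726 in the other RNA libraries and 2312820 to 2958271 in DNA. The replicate 1 RNA libraries stand apart: the 488 regions with 0 counts in all DNA libraries held 0.0197% and 0.0162% of the atrial and ventricular counts there. In replicates 2 to 5 they held 3.34% to 3.86% of the atrial counts and between 3.93% and 4.20% of the ventricular ones. Whether the DNA libraries match the pool behind replicates 2 to 5 was not tested, and every RNA over DNA value rests on them. Results are therefore given with and without replicate 1 where this changes a call. All 22 members had at least 6 counts in every library and a mean DNA count of at least 17.6, above the minimum of 10 that 2601 regions met. Levels are CPM, counts scaled to the size of each library by TMM over all 15 libraries, given as mean ± SD with n = 5 or as the values of replicates 1 to 5 in order. Ratios are log2 values fitted by edgeR, with their standard error (SE), and a region is called at an adjusted p under 0.05 over the 2601 regions.

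Against the DNA of the pool, the Prdm16 gene holds regions with several-fold more RNA than DNA and regions with several-fold less. Of its 15 regions, 6 were called higher than DNA in ventricle and 8 lower, and 3 and 8 in atrium. Both Tead1 regions were called higher than DNA in both chambers. Of the 5 Myocd regions, 1 was called higher and 1 lower in ventricle, and 1 and 2 in atrium. Over the 3 loci 18 of 22 members were called in ventricle, 9 in each direction, where 81.2% of all tested regions were called (43.4% higher in ventricle, 37.8% higher in DNA). In atrium 16 were called, 6 higher and 10 lower, where 74.7% of all tested regions were called (38.4% and 36.3%). The 5 RNA and 5 DNA libraries did not overlap in 17 members in ventricle and 15 in atrium, beside 70.0% and 60.4% of all tested regions. Since the loci were chosen with these values known, nothing is read from the counts. The median log2 ratio of the members was 0.01 in ventricle and -0.24 in atrium, beside 0.13 and 0.04 over all tested regions. The split depends on the scaling: with library totals in place of TMM it was 12 higher and 7 lower in ventricle and 11 and 8 in atrium, and with scaling on the regions that the authors' class column calls Neg it was 11 and 8, and 10 and 8. Over all tested regions the split moved the same way, from 1129 higher and 983 lower in ventricle to 1371 and 732 by library totals and to 1215 and 852 by the Neg regions. In atrium it moved from 999 and 945 to 1312 and 600, and to 1264 and 644.

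**Figure D1:**
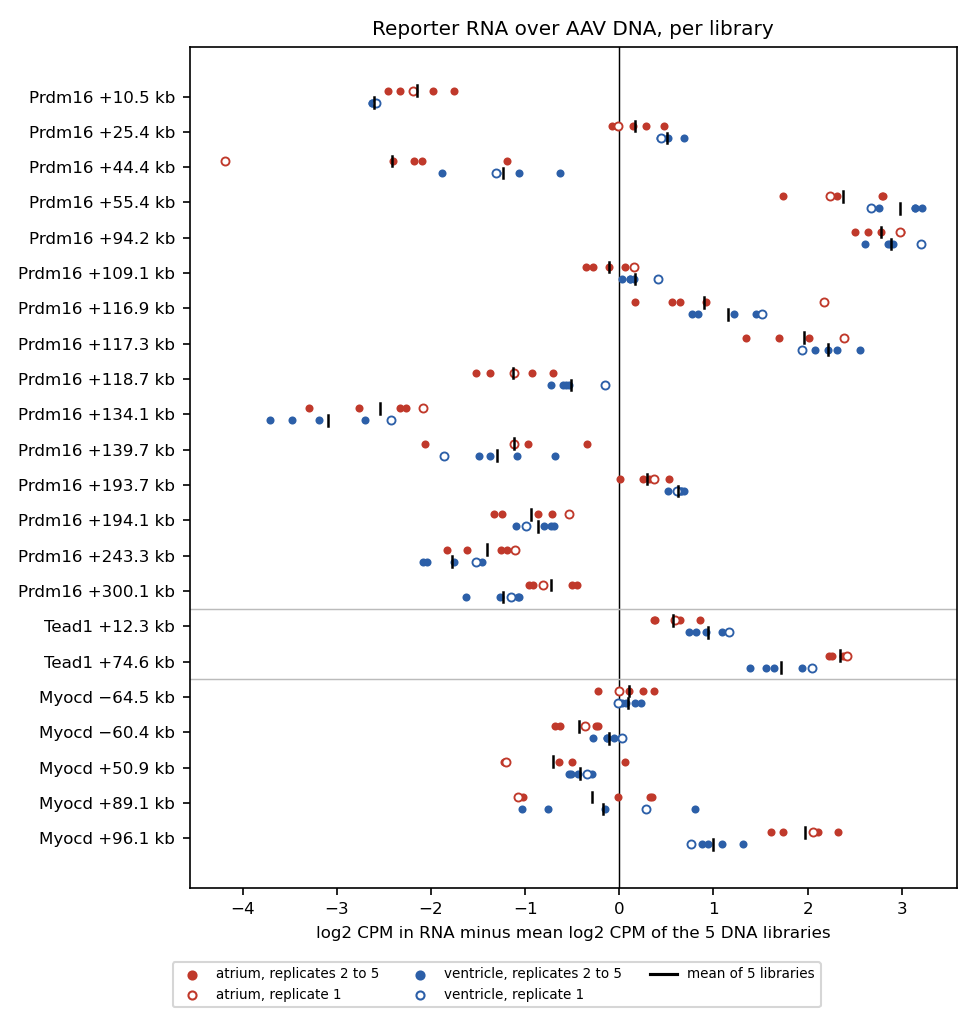
Reporter RNA over AAV DNA of the 22 regions, as log2 CPM of each RNA library minus the mean log2 CPM of the 5 DNA libraries, with atrium in red, ventricle in blue, replicate 1 as open points and the mean of 5 libraries as a black bar. Prdm16 regions are named by kb downstream of the start site, Tead1 regions by kb above the lower end of the gene body and Myocd regions by kb above (+) or below (−) its upper end. The Prdm16 regions at 55.4 and 94.2 kb have the highest ventricular means and the one at 134.1 kb the lowest.

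RefSeq places Prdm16 on the minus strand at chr4:154316122-154637360 with a start site at 154636873, and its regions are named here by the distance of their midpoint downstream of that site, from 10.5 to 300.1 kb. All 15 carry the tag GeneAVB in their identifiers. Over the 865 tested regions with this tag, 338 were called higher than DNA and 384 lower in ventricle, and 300 and 365 in atrium. Their log2 ratios to DNA ranged from -4.65 to 7.47 in ventricle, so regions far above and far below DNA are not particular to Prdm16. Tags and classes are the authors' and are spelled as in the files, which do not explain them. The 94.2 kb region (chr4:154542514-154542913) had the highest standing among regions with a like amount of DNA. Its DNA libraries held 231, 242, 211, 241 and 234 CPM. Its atrial libraries held 1831, 1846, 1449, 1591 and 1317 CPM. Its ventricular libraries held 2148, 1739, 1674, 1413 and 1707 CPM. Every RNA library of both chambers was thus above every DNA library, and the chambers overlap. The fitted log2 ratio to DNA was 2.69 ± 0.12 in atrium (6.45-fold) and 2.90 ± 0.10 in ventricle (7.48-fold). Over all tested regions the median log2 ratio in ventricle was 1.43 where the mean DNA count was under 100 and -0.69 where it was 300 or more, so each member was also placed among the tested regions with a like mean DNA count. Of the 1177 regions in the highest of these ranges, 98.7% lay below the 94.2 kb region in ventricle and 99.0% in atrium.

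The same region gave the largest share of the reporter RNA of the locus. It held 30.6% ± 3.38 of the counts of the 15 Prdm16 regions in atrium and 31.9% ± 2.70 in ventricle, against 2.71% ± 0.363 in DNA (SD, n = 5). The region nearest to the start site, at 10.5 kb, went the other way, with 51.2% ± 1.13 of the DNA counts of the locus and 19.4% ± 4.21 and 13.4% ± 0.800 of its atrial and ventricular RNA. Summed over the 15 regions, the locus stood at 8632 ± 805 CPM in DNA, 5242 ± 267 in atrium and 5428 ± 393 in ventricle.

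The 55.4 kb region (chr4:154581259-154581658) had a ratio as high in ventricle, but from little DNA. It held 17.9, 15.7, 28.6, 12.9 and 12.6 CPM in the DNA libraries, with a mean of 36.6 counts. It held 82.2, 122, 121, 86.4 and 58.0 CPM in atrium. It held 111, 155, 163, 155 and 118 CPM in ventricle. All RNA libraries were above all DNA libraries, and atrial replicates 2 and 3 lay within the ventricular range. The log2 ratio was 3.02 ± 0.22 in ventricle (8.09-fold) and 2.33 ± 0.28 in atrium (5.03-fold). Among the 854 regions with mean DNA counts from 10 to under 100, 80.8% lay below it in ventricle and 72.7% in atrium, a lower standing than that of the 94.2 kb region among its own.

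At the other end, the 134.1 kb region (chr4:154502543-154502942) gave little reporter RNA in either chamber. It held 248, 232, 283, 220.2 and 249 CPM in DNA. It held 57.2, 50.5, 35.5, 24.2 and 48.2 CPM in atrium. It held 45.1, 18.0, 21.4, 26.2 and 37.2 CPM in ventricle. No RNA library came near the DNA libraries, and the chambers overlap. The region was 8.52-fold below DNA in ventricle (log2 -3.09 ± 0.21) and 6.19-fold below in atrium (-2.63 ± 0.21), and 1.44% and 2.29% of the regions with as much DNA (300 counts or more) lay lower still. The 10.5 kb region (chr4:154626184-154626583) was 6.09-fold below DNA in ventricle (-2.61 ± 0.08) and 4.69-fold in atrium (-2.23 ± 0.12), at 4420.0 ± 398 CPM in DNA, the highest DNA level of the 22 members. The 44.4 kb region (chr4:154592291-154592690) was 4.74-fold below DNA in atrium (-2.24 ± 0.35) and 2.29-fold below in ventricle (-1.20 ± 0.19), with 8.32, 36.3, 72.8, 30.9 and 38.5 CPM in the atrial libraries. Atrial replicate 1 is the lowest of these.

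**Figure D2:**
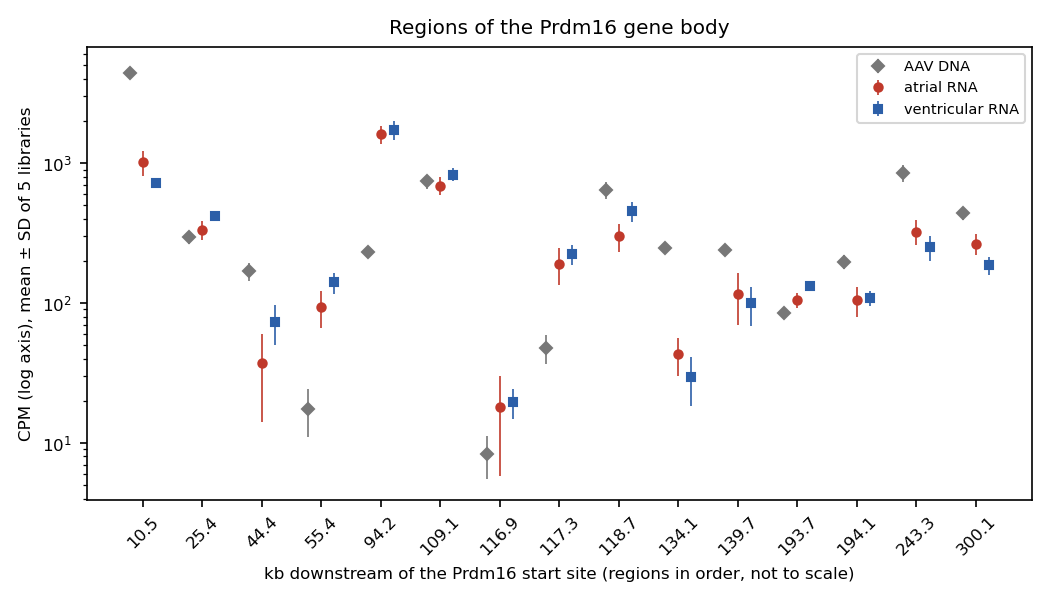
CPM of the 15 Prdm16 regions in AAV DNA (grey), atrial RNA (red) and ventricular RNA (blue) on a log axis, as mean ± SD of 5 libraries, ordered by distance downstream of the start site. The RNA means of both chambers stand above DNA at 55.4, 94.2 and 117.3 kb, for example, and below it at 10.5, 134.1 and 243.3 kb.

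Of the remaining Prdm16 regions, those at 139.7, 194.1, 243.3 and 300.1 kb were called lower than DNA in both chambers, with log2 ratios from -1.77 (243.3 kb) to -0.86 (194.1 kb) in ventricle and from -1.49 (243.3 kb) to -0.82 (300.1 kb) in atrium. The 118.7 kb region was called lower in both as well, at -1.21 ± 0.15 in atrium and -0.51 ± 0.11 in ventricle, and lost the ventricular call with library totals and with a DNA minimum of 100. The 25.4 kb region was called higher in ventricle (0.51 ± 0.09) and not in atrium (0.07 ± 0.12), where library totals, scaling on the Neg regions and a DNA minimum of 100 each called it higher. The 109.1 kb region was called in neither (-0.20 ± 0.11 in atrium and 0.16 ± 0.09 in ventricle), and its call moved with the setting. In ventricle it was called higher without DNA replicate 3, with library totals, with scaling on the Neg regions and with a DNA minimum of 100. In atrium it was called lower without atrial replicate 1 and without a filter, but higher with library totals. All of these regions had 300 or more DNA counts. In ventricle, those at 139.7, 194.1, 243.3 and 300.1 kb stood above 13.2% (243.3 kb) to 43.2% (194.1 kb) of such regions. In atrium they stood above 16.3% (243.3 kb) to 43.2% (300.1 kb). The 118.7, 25.4 and 109.1 kb regions stood above 55.4%, 81.1% and 74.6% in ventricle, and above 27.2%, 74.3% and 65.6% in atrium.

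Prdm16 holds 2 pairs of regions that abut without a gap, so that each pair covers 800 bp. In the pair at 193.7 and 194.1 kb (chr4:154442975-154443374 and chr4:154442575-154442974, both tagged vMTF+p300 beside GeneAVB) only the tile nearer to the start site was called above DNA in ventricle. The 193.7 kb tile held 85.3 ± 8.49 CPM in DNA, 105 ± 13.7 in atrium and 132 ± 5.79 in ventricle, with log2 ratios to DNA of 0.20 ± 0.15 (called higher only with library totals, scaling on the Neg regions or a DNA minimum of 100) and 0.63 ± 0.12 (called higher). The 194.1 kb tile held 198 ± 22.4, 105 ± 24.7 and 109 ± 13.1 CPM, with ratios of -1.02 ± 0.17 and -0.86 ± 0.12, both called lower. Within a library, and relative to the mean of the DNA libraries, the nearer tile exceeded its neighbour by 1.23 on the log2 scale in atrium (range 0.73 to 1.65 over 5 libraries) and by 1.49 in ventricle (1.32 to 1.75), 2.35-fold and 2.80-fold. The DNA libraries ranged from -0.08 to 0.12 on the same scale, so all 10 RNA libraries lay above them. The tiles differ in DNA, with mean counts of 182.8 and 422.2, and median ratios fell as the DNA count rose. Regions in the DNA range of the 193.7 kb tile had median log2 ratios of 0.20 (atrium) and 0.28 (ventricle). In its neighbour's range the medians were -0.66 and -0.69. Within its range the 193.7 kb tile lay above 50.2% (atrium) and 61.4% (ventricle), and its neighbour above 34.6% and 43.2%. How much of the tile difference follows the DNA count was not tested.

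In the pair at 116.9 and 117.3 kb (chr4:154519775-154520174 and chr4:154519375-154519774) both tiles stood above DNA in mean. The 117.3 kb tile held 47.9 ± 11.5 CPM in DNA, 192 ± 56.5 in atrium and 223 ± 36.8 in ventricle, and was called higher in both chambers, at 1.89 ± 0.25 and 2.21 ± 0.18 on the log2 scale. The 116.9 kb tile was scarce, with 8.39 ± 2.86 CPM in DNA and a mean of 17.6 counts. Its ratios were 1.21 ± 0.30 in ventricle (called) and 0.97 ± 0.43 in atrium (not called), and the atrial ratio was called higher without atrial replicate 3, 4 or 5 or DNA replicate 3, and with library totals or scaling on the Neg regions. Relative to DNA the log2 difference from its neighbour was -1.07 in atrium and -1.06 in ventricle, but DNA libraries alone ranged from -0.59 to 1.28, so this difference is not clear of the spread. Among regions with 10 to under 100 DNA counts, whose medians were 1.21 and 1.43, the 116.9 kb tile lay above 43.3% in atrium and 45.4% in ventricle. The 117.3 kb tile lay above 85.6% and 87.0% of regions with 100 to under 300 counts.

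Tead1 spans chr7:112679356-112906784 and holds 2 members, named by the distance of their midpoint above the lower end of the gene body. Both were above DNA in both chambers. The 74.6 kb region (chr7:112753793-112754192, tagged vMTF-p300) held 67.7, 71.5, 76.5, 51.6 and 67.5 CPM in DNA. It held 358, 313, 359, 322 and 348 CPM in atrium. It held 277, 257, 198, 176 and 209 CPM in ventricle. All 5 atrial libraries exceed all 5 ventricular ones, which in turn exceed the DNA libraries. The log2 ratio to DNA was 2.24 ± 0.13 in atrium (4.74-fold) and 1.73 ± 0.15 in ventricle (3.33-fold), above 89.8% and 81.4% of the 570 regions whose mean DNA count was 100 to under 300.

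The 12.3 kb region (chr7:112691474-112691873) carries the tag ESC_Neg, and the authors' class column places it in TF1-2 and not in Neg. It held 184, 188, 199, 177 and 171 CPM in DNA. It held 277, 287, 237, 239 and 335 CPM in atrium. It held 412, 393, 347, 307 and 324 CPM in ventricle. Every RNA library was above every DNA library, while the chambers overlap. The log2 ratio was 0.48 ± 0.12 in atrium (1.39-fold) and 0.95 ± 0.10 in ventricle (1.94-fold), above 82.2% and 88.4% of the regions with as much DNA (300 counts or more). The pair shared the reporter RNA of the locus differently in the chambers: the 74.6 kb region held 55.4% ± 3.80 of the counts in atrium, 38.3% ± 1.85 in ventricle and 26.6% ± 2.31 in DNA (SD, n = 5).

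Myocd spans chr11:65173608-65269989. Its members are named by the distance of their midpoint from the upper end of the body, with 2 inside the gene (-64.5 and -60.4 kb) and 3 beyond it (50.9, 89.1 and 96.1 kb). All carry the tag aMTF+p300 or vMTF+p300. The outermost, 96.1 kb away (chr11:65365925-65366324, tagged vMTF+p300), was the only member of the locus called above DNA. It held 42.4, 51.5, 38.0, 52.1 and 48.8 CPM in DNA. It held 196, 156, 235, 202 and 143 CPM in atrium. It held 79.2, 85.6, 89.6, 116 and 99.2 CPM in ventricle. The 3 groups do not overlap, with atrium highest and DNA lowest. The log2 ratio to DNA was 1.89 ± 0.18 in atrium (3.71-fold) and 1.01 ± 0.16 in ventricle (2.02-fold), above 86.1% and 68.6% of the regions with 100 to under 300 DNA counts.

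Neither intragenic Myocd region was called against DNA in ventricle, and the one at -60.4 kb was called lower in atrium. The -64.5 kb region (chr11:65205299-65205698, tagged aMTF+p300) held 247, 255, 235, 261 and 247 CPM in DNA. It held 249, 323, 213, 296 and 268 CPM in atrium. It held 246, 253, 280.0, 262 and 293 CPM in ventricle. The 3 groups overlap, and the log2 ratios of 0.01 ± 0.12 in atrium and 0.10 ± 0.09 in ventricle were not called, although both were called higher with library totals, scaling on the Neg regions or a DNA minimum of 100. The -60.4 kb region (chr11:65209434-65209833, tagged vMTF+p300) held 1077, 1049, 1234, 995 and 1079 CPM in DNA. It held 843, 930.0, 673, 699.6 and 914 CPM in atrium. It held 1109, 1045, 987, 989 and 894 CPM in ventricle. All atrial libraries were below all DNA libraries, while the ventricular ones overlap both. Its log2 ratio was called lower in atrium (-0.52 ± 0.10) but not under any of these settings, and the ratio in ventricle (-0.11 ± 0.08) was not called. Without ventricular replicate 1, and in replicates 2 to 5 alone (-0.18), the ventricular ratio was called lower, as it was with DESeq2 and without a filter, and with library totals or a DNA minimum of 100 it was called higher.

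Of the regions beyond the gene, that at 50.9 kb (chr11:65320682-65321081, tagged vMTF+p300) was the lowest of the locus in ventricle. It held 52.9, 63.4, 44.4, 58.5 and 51.6 CPM in DNA. It held 22.9, 22.6, 37.7, 56.0 and 34.2 CPM in atrium. It held 42.2, 37.5, 37.0, 43.9 and 39.6 CPM in ventricle. The ventricular libraries lie below all DNA libraries, while the atrial ones scatter widely and overlap both. It was called lower than DNA in both chambers (-0.74 ± 0.26 in atrium and -0.44 ± 0.16 in ventricle). The atrial call was lost in replicates 2 to 5 (-0.58) and without DNA replicate 1, 2 or 5, the ventricular call without DNA replicate 2, and both with library totals, scaling on the Neg regions or a DNA minimum of 100. The 89.1 kb region was scarce, at 14.5 ± 3.59 CPM in DNA, 12.6 ± 5.95 in atrium and 14.0 ± 7.66 in ventricle, and was called in no comparison.

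**Figure D3:**
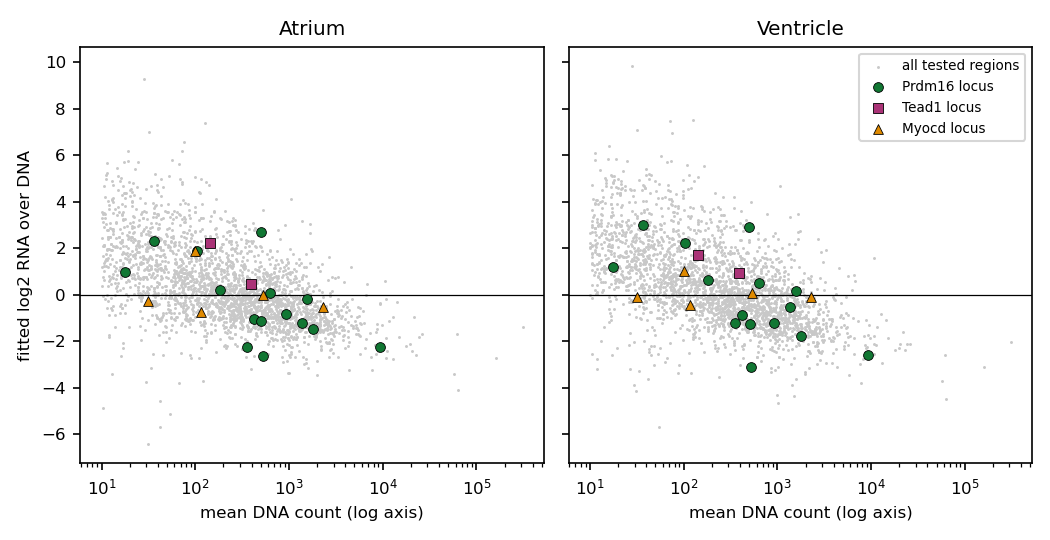
Fitted log2 RNA over DNA against the mean DNA count (log axis) in atrium (left) and ventricle (right), for the 2601 tested regions (grey points) and the members at Prdm16 (green circles), Tead1 (purple squares) and Myocd (orange triangles). The grey cloud slopes down with the DNA count, and among regions with 300 or more counts the Prdm16 region at 94.2 kb stands near its upper edge and that at 134.1 kb near its lower edge.

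The members were ordered by their mean log2 RNA over DNA per library, without regard to their DNA count. Sorting by itself places alike members side by side, and other regions were not ordered for comparison, so overlap of neighbours is only a description. In ventricle the order of the members ran from the Prdm16 regions at 55.4 and 94.2 kb through Prdm16 117.3 kb and Tead1 74.6 kb down to Prdm16 10.5 and 134.1 kb. Of the 21 neighbouring steps in that order, 17 had overlapping libraries, and the 4 that did not were those below Prdm16 94.2 kb, Tead1 12.3 kb, Prdm16 25.4 kb and Prdm16 243.3 kb. In atrium, where Prdm16 94.2 kb came first and Prdm16 134.1 kb last, all 21 steps overlapped. The authors' class did not sort the members along this order: the 11 in MTF or P300 ranged from -3.09 to 2.90 in fitted log2 over DNA in ventricle, and the 8 in spMTF or spP300, all at Prdm16, from -2.61 to 2.21.

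Between the chambers, 4 members were called higher in atrium and 2 higher in ventricle. The atrial side comprised Myocd 96.1 kb, Tead1 74.6 kb and Prdm16 10.5 and 300.1 kb, and the ventricular side Prdm16 118.7 kb and Myocd -60.4 kb. These 6 of 22 compare with 30.9% of all tested regions called between chambers (15.8% higher in atrium, 15.1% higher in ventricle). In 4 members, those on the atrial side, the 5 atrial and 5 ventricular libraries did not overlap, which held for 23.0% of all tested regions. The median log2 atrium over ventricle was -0.12 for the members and 0.03 for all tested regions. By sign alone 8 members were higher in atrium and 14 in ventricle, beside 1352 and 1249 of all tested regions. By mean DNA count, the median of tested regions was -0.09 under 100 and 0.11 at 300 or more. Among tested regions of like DNA count, Myocd 96.1 kb and Tead1 74.6 kb stood above 94.6% and 86.3%. Prdm16 10.5 and 300.1 kb stood above 77.2% and 79.5%, and Prdm16 118.7 kb and Myocd -60.4 kb above 7.39% and 20.6%. Within replicates 2 to 5 the 4 atrial calls were kept and the 2 ventricular ones were not. Over all tested regions, replicates 2 to 5 gave 719 calls against 804, with 391 higher in atrium and 328 higher in ventricle. The balance thus moved toward atrium there too, from the near-equal shares of 15.8% and 15.1%, and nothing is read from the member split. Atrial and ventricular libraries of one number deviated from their group means with a correlation above 0 for every number. The correlation was 0.818 for replicate 1 and 0.225 to 0.241 for replicates 2 to 5. For replicates 3, 4 and 5 another number matched better. With the replicate number as a block 11 members were called, 5 higher in atrium and 6 higher in ventricle, and 869 of all 2601 regions (441 and 428). Scaling on the Neg regions gave 5 and 0 members, and 578 and 226 of all regions. Library totals gave 4 and 4 members, and 397 and 402 of all regions.

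**Figure D4:**
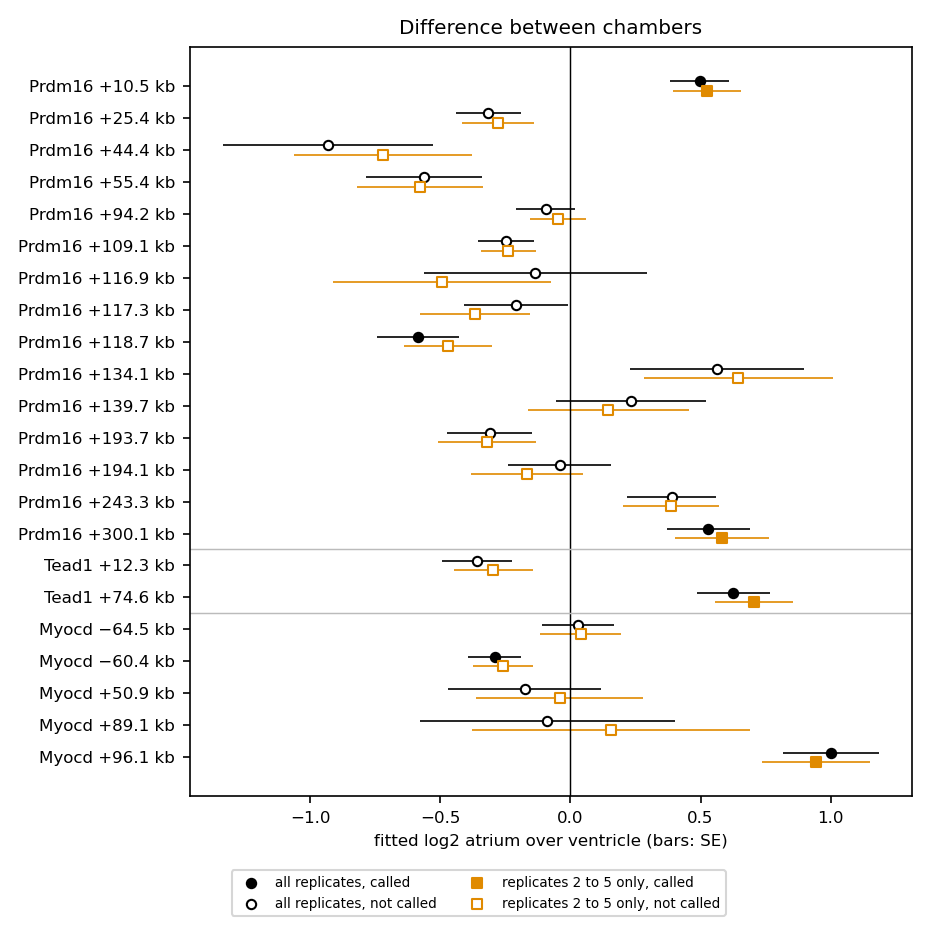
Fitted log2 atrium over ventricle of the 22 members with SE bars, over all replicates (black circles) and over replicates 2 to 5 (orange squares), filled where called at an adjusted p under 0.05 over all tested regions. Positive values are higher in atrium. The filled points common to both settings are Prdm16 10.5 and 300.1 kb, Tead1 74.6 kb and Myocd 96.1 kb.

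The largest difference called was at Myocd 96.1 kb, with 186 ± 37.0 CPM in atrium and 93.9 ± 14.3 in ventricle, higher in atrium (log2 1.002 ± 0.18). It was higher in atrium in all 5 same-numbered pairs and kept its call under every alternative run. This region carries the vMTF tag, and its excess lay in atrium, but members with that tag went both ways. Myocd -60.4 and 50.9 kb and Prdm16 193.7 and 194.1 kb, all tagged vMTF, leaned to ventricle (-0.29, -0.18, -0.31 and -0.04). Of these only Myocd -60.4 kb was called. Tead1 74.6 kb, also tagged vMTF, was 1.54-fold higher in atrium (0.63 ± 0.14), at 339.9 ± 21.1 and 223 ± 42.3 CPM, in all 5 pairs and under every alternative. The neighbouring Tead1 12.3 kb region leaned the other way without being called (-0.36 ± 0.13), and with the replicate block it was called higher in ventricle (-0.36), as it was without atrial replicate 5 or ventricular replicate 4 and with library totals, DESeq2 or a DNA minimum of 100.

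At Prdm16, both atrial calls were at regions below DNA in both chambers. The 10.5 kb region held 965, 874, 1116, 802 and 1301 CPM in atrium. It held 733, 729.6, 737, 715 and 713 CPM in ventricle. The ventricular values lie within a narrow band and all atrial values above it. The difference was 1.41-fold (0.50 ± 0.11), and its call held under every alternative. The 300.1 kb region (chr4:154336588-154336987) held 445, 407, 506, 389.7 and 439.6 CPM in DNA. It held 248, 224, 319.7, 229.9 and 306 CPM in atrium and 196, 206, 208, 180.1 and 140.5 CPM in ventricle. The groups do not overlap, and atrium lay 1.44-fold above ventricle (0.53 ± 0.16). This call was lost without atrial replicate 3.

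Neither ventricular call held in replicates 2 to 5 alone. The 118.7 kb Prdm16 region (chr4:154517967-154518366, class TF1-2) held 631, 600.1, 797, 563 and 643 CPM in DNA. It held 296, 393, 223, 248 and 336 CPM in atrium. It held 580.2, 389, 444, 424 and 435 CPM in ventricle. Ventricular replicate 1 is the highest of its group and atrial replicate 2 reaches into the ventricular range. Ventricle lay above atrium (log2 -0.58 ± 0.16), but in replicates 2 to 5 the difference was -0.47 and not called, and the call was also lost without a filter and with scaling on the Neg regions. Myocd -60.4 kb, 1.22-fold higher in ventricle (-0.29 ± 0.10), lost its call in replicates 2 to 5 (-0.26), without any of atrial replicates 1, 3 and 4 or ventricular replicates 1 to 4, without a filter and with scaling on the Neg regions.

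Among the 16 members not called between chambers was the Prdm16 region at 94.2 kb. There the difference was -0.10 ± 0.11, 1.07-fold toward ventricle, and no alternative called it. The largest difference of any Prdm16 region was at 44.4 kb, where ventricle lay 1.91-fold above atrium (-0.93 ± 0.41) with 37.3 ± 23.1 and 73.4 ± 23.1 CPM. In replicates 2 to 5 it was -0.72, and with the replicate block -1.07, which was called, as it was without atrial replicate 3. The 55.4 and 25.4 kb regions were higher in ventricle in all 5 pairs, at -0.56 ± 0.22 and -0.32 ± 0.12, and both were called with the block (-0.60 and -0.33) and without atrial replicate 3. The first was also called without atrial replicate 2 and with DESeq2, and the second with library totals and with a DNA minimum of 100. The 243.3 kb region was higher in atrium in all 5 pairs (0.39 ± 0.17), and was called with the block (0.39), without atrial replicate 3 and with scaling on the Neg regions (0.55). The 193.7 kb tile was higher in ventricle in all 5 pairs (-0.31 ± 0.16) and was not called with the block. The 109.1 kb region (-0.25 ± 0.11) was called only without atrial replicate 1 and with a DNA minimum of 100. The 134.1 kb region, far below DNA in both chambers, had a log2 difference of 0.56 ± 0.33.

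Other regions were ranked by how closely their log2 CPM followed the member of each locus with the largest chamber difference, over the 8 RNA libraries of replicates 2 to 5. These correlations share libraries and are given as a description. For Myocd 96.1 kb the closest were regions at Sphkap (chr1:83455317-83455716, 47105 bp away, r = 0.976), Dpysl2 (chr14:66816770-66817169, inside the gene, r = 0.963) and Mybpc1 (chr10:88622564-88622963, 17534 bp away, r = 0.960). Their log2 atrium over ventricle was 1.01 ± 0.20, 0.98 ± 0.18 and 0.75 ± 0.17. For Tead1 74.6 kb they were Baiap2l1 (chr5:144351138-144351537, r = 0.991), Atp11a (chr8:12844932-12845331, r = 0.982) and Nav1 (chr1:135470535-135470934, r = 0.978), all inside genes. The log2 atrium over ventricle of these was 0.83 ± 0.33, 0.31 ± 0.11 and 0.42 ± 0.11. For Prdm16 44.4 kb they were Fam110c (chr12:31145350-31145749, 65609 bp away, r = 0.921), Stard13 (chr5:151056639-151057038, r = 0.916) and Kmt2c (chr5:25275672-25276071, r = 0.913). The Stard13 and Kmt2c regions lie inside the gene. In atrium over ventricle the log2 values were -0.75 ± 0.18, -0.43 ± 0.25 and -0.38 ± 0.10.

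Regions at other genes of the same pathways were counted from lists of gene symbols. The lists were chosen with earlier results of these data known, and regions are named by their smallest p. Adjusted p-values given for them are therefore a description and no independent evidence. The Hippo and TEAD list had 5 tested regions at 4 genes, of which 2 were called higher in atrium and 0 in ventricle (15.8% and 15.1% of all tested regions), with a median log2 atrium over ventricle of 0.23 beside 0.03 over all tested regions. A region inside Vgll4, which encodes a cofactor that competes with YAP for TEAD proteins (chr6:114888964-114889363), had 1332 ± 92.7 CPM in atrium against 799.8 ± 50.3 in ventricle, a log2 difference of 0.75 ± 0.08 (edgeR, adjusted p = 3.1e-06). The log2 ratio of the Vgll4 region to DNA was -0.06 in atrium and -0.69 in ventricle. A region inside Ptpn14, a phosphatase that restrains YAP (chr1:189867548-189867947), had 0.40 ± 0.14 (edgeR, adjusted p = 0.0398) and lost its call in replicates 2 to 5, without atrial replicate 1, 2 or 3 and without any single ventricular library. RNA over DNA was called up in 2 and down in 1 of the 5 in atrium, and in 2 and 2 in ventricle, where the shares of all tested regions were 38.4% and 36.3%, and 43.4% and 37.8%.

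The list of serum response factor, the myocardin family and their targets had 12 tested regions at 8 genes. Of these 3 were called higher in atrium and 0 in ventricle, beside 15.8% and 15.1% of all tested regions, with a median log2 difference of 0.37 beside 0.03. RNA over DNA was called up in 4 and down in 3 of them in atrium (38.4% and 36.3% of all tested regions), and in 4 and 6 in ventricle (43.4% and 37.8%). A region near Nppb, the gene of B-type natriuretic peptide (chr4:147969386-147969785), had 1224 ± 83.2 CPM in atrium against 667 ± 43.7 in ventricle, a log2 difference of 0.89 ± 0.08 (edgeR, adjusted p = 5.1e-07). With 2149 CPM in DNA, it lay below DNA in both chambers (log2 -0.91 in atrium and -1.69 in ventricle). A region near Fhl2, a LIM domain cofactor (chr1:43247641-43248040), had 0.48 ± 0.10 (edgeR, adjusted p = 0.00109). A region near Cnn1, smooth muscle calponin (chr9:22095914-22096313), had 3.10 ± 0.90 (edgeR, adjusted p = 0.0153) from 81 atrial and 19 ventricular counts in all, with libraries that overlap, and lost its call in replicates 2 to 5.

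The list of compact myocardium growth genes and partners of PRDM16 had 20 tested regions at 10 genes. Between chambers 2 were called higher in atrium and 4 higher in ventricle, beside 15.8% and 15.1% of all tested regions, with a median log2 difference of 0.12 beside 0.03. RNA over DNA was called up in 10 and down in 6 in atrium, against the shares of 38.4% and 36.3%, and in 10 and 3 in ventricle, against 43.4% and 37.8%. The region inside Insr, the insulin receptor (chr8:3187531-3187930), was 2.02-fold higher in ventricle, at 1186 ± 173 CPM in atrium against 2426 ± 129 in ventricle (edgeR, adjusted p = 1.0e-06). A region near Tgfb2, a growth factor of the transforming growth factor beta family (chr1:186587235-186587634), had 1003 ± 122 CPM in atrium against 1442 ± 123 in ventricle (log2 -0.51 ± 0.09, edgeR, adjusted p = 6.3e-04). A region near Bmp10, a growth factor of trabecular and atrial myocardium (chr6:87443218-87443617), had 62.8 ± 48.4 CPM in atrium against 13.0 ± 3.02 in ventricle (log2 2.26 ± 0.46, edgeR, adjusted p = 0.00162).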

How the data were processed

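The authors deposited raw counts: whole numbers for each region and library. Per the submitters' processing notes, cutadapt 2.5, Bowtie2 2.3.4.3 and mm10 were used, and per the labels' protocols the primer carried a molecular identifier. Whether reads or molecules were counted is not stated in the labels. The series table and the sample files held the same counts (0 differing values). No pair of libraries of a group agreed within sampling noise (lowest chi-square per degree of freedom 1.79 in DNA, 17.7 in atrium and 12.7 in ventricle).

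Each comparison used edgeR 4.0.16 in R 4.3.3 (quasi-likelihood, robust, TMM) on its 5 and 5 libraries over the 2601 regions that averaged 10 or more counts in DNA, with Benjamini-Hochberg adjustment, and its code was tested on simulated counts. Fitted ratios differ from ratios of the printed CPM by at most 0.137 on the log2 scale. Deviations of same-numbered atrial and ventricular libraries from their group means correlated at 0.225 to 0.818, though only replicates 1 and 2 matched their own number best. The value of 0.818 was that of replicate 1, and the highest of the others was 0.241. The main fit has no block, and the blocked fit is given beside it where it changes a call. Against DNA they correlated at -0.032 to 0.060. Alternatives were library totals, scaling on Neg regions, DESeq2 1.42.0, other filters, the replicate block, replicates 2 to 5 and leaving out each library.

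Ties between genes went to the shorter gene. Per-library values were given for members called between chambers and, per locus, for the 2 highest and the lowest over DNA in ventricle. For each list, up to 3 called regions with the smallest p were named. The members, lists and rules were chosen with earlier results of these data known. The motif search planned for the regions was not run, since their sequences were not used here.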

Additional observations from a re-analysis of the deposited data

Results flagged for a closer look

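In 2 of the 66 groups of 5 libraries formed by the 22 regions, a library lay far from the other 4, where chance alone would single out about 1 in 20 groups. Both were replicate 1 libraries. At Prdm16 118.7 kb, ventricular replicate 1 held 580.2 CPM and the other ventricular libraries 389 to 444. At Prdm16 116.9 kb, atrial replicate 1 held 39.5 CPM and the other atrial libraries 9.16 to 16.1.

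The ratio of RNA to DNA differed between the chambers, by the test of atrium against ventricle, in 6 regions. The log2 atrium over ventricle was 1.002 at Myocd 96.1 kb, 0.63 at Tead1 74.6 kb, 0.53 at Prdm16 300.1 kb and 0.50 at Prdm16 10.5 kb. It was -0.58 at Prdm16 118.7 kb and -0.29 at Myocd -60.4 kb. The loci were chosen with these counts in view, so the differences describe the regions and are no independent evidence.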

How the results depend on the processing

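No called member changed direction under any alternative run. The alternatives that tested a member (17, or 16 where its mean DNA count was under 100) all kept the call of 3 of the 6 members called between chambers, 14 of the 16 called in atrium over DNA and 16 of the 18 called in ventricle over DNA. Of the members not called, 6 of 16, 5 of 6 and 3 of 4 were called under some alternative. How many calls of all tested regions held under every alternative was not counted, so nothing is read from these member counts. Leaving out single libraries gave 5 to 8 called members between chambers, 15 to 17 in atrium over DNA and 17 to 19 in ventricle over DNA. Over all tested regions it gave 667 to 805 calls between chambers. In atrium over DNA it gave 1827 to 1974, and in ventricle over DNA 2034 to 2140. The replicate block raised the members called between chambers from 6 to 11 (5 and 6), while over all regions it gave 869 calls against 804. It left the members called against DNA at 16 and 18. Over all regions, calls in atrium over DNA went from 1944 to 2952 without a filter and 1280 at a mean DNA count of at least 100, and in ventricle over DNA from 2112 to 3171 without a filter, where fewer or more regions were tested. Library totals moved the median of all regions by 0.48 in atrium and 0.37 in ventricle over DNA, and scaling on the Neg regions by 0.40 and 0.17, and by 0.16 between chambers. A gene distance of 20 kb left 19 members, all inside gene bodies. The scarcest members, Prdm16 116.9 kb and Myocd 89.1 kb, rest on mean DNA counts of 17.6 and 31.4.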
